A study of Mus musculus with 14 samples.

Results

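Gene expression was compared between hepatoblast cultures that carried a cancer-type mutant of isocitrate dehydrogenase (IDH) and cultures without one, all grown on collagen-coated plates. The cultures were chosen by their titles. The mutant side held 2 cultures with IDH1 R132C and 2 with IDH2 R172K, and the non-mutant side held 2 cultures each with wild-type IDH1, wild-type IDH2 and the empty vector, which is 10 of the 14 arrays of the series. The other 4 arrays held vector and IDH1 R132C cells from uncoated plates. They were compared separately, and also entered the choice of probe sets and a setting with all 14 arrays. The parental cells were hepatoblasts, the bipotent liver progenitors of the fetus, taken from wild-type mice at embryonic day 14 and immortalised by plating at clonal density. The sources used here do not say whether they are 1 clone. All inserts sat in a doxycycline-inducible system. The protocol gives 25 ng/mL of doxycycline for the IDH1 experiments, and the sources used here do not say whether the vector and IDH2 cultures received it. RNA was hybridised to Affymetrix Mouse 430A 2.0 arrays, and the 2 replicates of a form were separate cultures, so p-values measure the spread between cultures of 1 cell source.

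IDH1 in the cytosol and IDH2 in mitochondria normally convert isocitrate to 2-oxoglutarate. The R132 and R172 mutants instead turn 2-oxoglutarate into 2-hydroxyglutarate, which competes with 2-oxoglutarate at dioxygenases that demethylate histones and DNA, hydroxylate collagen and sense oxygen. Such mutations are found in human intrahepatic cholangiocarcinoma, and the series title places HNF4A, a nuclear receptor that drives hepatocyte genes, at the centre of the study. Pooling both mutants against all 3 non-mutant forms asks what the mutants share.

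Except for R172K replicate 1, the arrays were alike in scale. Their lower quartile lay between log2 4.72 and 4.81, which is taken here as the level of background, and their median intensity lay between 144.8 and 148.1, except 134.9 in R172K replicate 1. The SD between the replicates of a form, over all genes, was 0.217 log2 units for R172K and 0.128 to 0.168 for the other forms. The Idh1 signal was 11.99 and 12.13 in wild-type IDH1 cultures and 11.97 and 12.26 in vector cultures, and Idh2 was 10.86 and 10.78 in wild-type IDH2 cultures against 10.83 and 10.80 in vector cultures. The sources used here do not name the species of the inserts, so these probe sets do not check the labels. The cells had high levels of the epithelial keratin genes Krt8 (14.23 ± 0.07 in mutant and 14.32 ± 0.02 in non-mutant cultures; SD, n = 4 and 6) and Krt19, and of Hnf4a and Afp. The hepatoblast markers Dlk1 (5.33 ± 0.07 and 5.30 ± 0.10) and Gpc3 (4.69 ± 0.15 and 4.70 ± 0.10), and albumin (Alb, 4.51 ± 0.22 and 4.59 ± 0.10), lay at or near background in mutant and non-mutant cultures.

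In mutant cultures 668 of 12393 genes differed from the non-mutant mean at an adjusted p under 0.05 (limma, Benjamini-Hochberg over all genes), which is 5.39% of the genes tested. Of these 214 (1.73%) were higher and 454 (3.66%) were lower. Most differences were small. The median size was 0.40 log2 units, 46 genes rose and 77 fell by at least 1.5-fold, and 9 rose and 9 fell by at least 2-fold. The 4 mutant arrays lay wholly above the 6 non-mutant arrays for 429 genes (3.46%) and wholly below them for 767 (6.19%), 9.65% in all. Among the called genes 175 rises (1.41% of all genes) and 392 falls (3.16%) were of this kind. In bulk RNA, fewer cells of a type and less RNA per cell cannot be told apart. The 3 non-mutant forms differed from each other for 0 genes (limma F test), with 61 genes at an unadjusted p under 0.05, where 619.65 is that share of the genes tested.

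Cultures with the same replicate number deviated together in these data, though the labels do not say what they shared. With the number as a block 1396 genes were called (11.3%), 465 higher (3.75%) and 931 lower (7.51%). They included all 668. Every form has both replicate numbers, so the block leaves each difference unchanged and the same direction was fixed in advance. All 214 rises and all 454 falls also had their direction within replicate 1 and within replicate 2. These differences are parts of the values that chose the genes, so this is a description. The split between rises and falls depended on centring: 68.0% of the called genes were lower, against 57.3% with each array centred on its median and 55.9% after cyclic loess. The array with the lowest median intensity, R172K replicate 1 (134.9), is on the mutant side. Single cultures moved the count as well. It was 124 and 144 without R132C replicate 1 or 2, 2226 without R172K replicate 2, 299 and 324 without wild-type IDH1 replicate 1 or 2, 371 and 264 without wild-type IDH2 replicate 1 or 2, and 356 without vector replicate 2.

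Among genes whose mutant and non-mutant arrays did not overlap, the largest rise was that of Prss23, a serine protease gene, at 3.09-fold. Its log2 level was 8.98 and 9.13 in R132C and 9.46 and 9.64 in R172K cultures, against 7.95 and 7.07 with wild-type IDH1, 8.05 and 7.46 with wild-type IDH2 and 8.08 and 7.43 with vector (difference 1.63, SE 0.19, adjusted p = 0.00166). All mutant cultures lay above all others, and in each non-mutant form replicate 1 lay above replicate 2. Wnt7a, which encodes a secreted Wnt ligand, had 9.28 and 9.03 in R132C and 9.68 and 9.98 in R172K, against 8.64 and 7.60 with wild-type IDH1, 8.58 and 7.90 with wild-type IDH2 and 8.43 and 7.78 with vector (1.34, SE 0.21, adjusted p = 0.00769). Its non-mutant cultures showed the same order of replicates, and its difference was 0.93 within replicate 1 and 1.75 within replicate 2.

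Scel, the gene of sciellin, a protein of the cornified envelope of squamous epithelium, rose 2.44-fold. It had 8.93 and 8.74 in R132C and 9.19 and 9.25 in R172K, against 7.48 to 8.07 in the 6 non-mutant cultures (1.29, SE 0.11, adjusted p = 0.000497). Krt80, an epithelial keratin gene, rose by 1.01 log2 units (SE 0.19, adjusted p = 0.0154). Fgf18, a fibroblast growth factor gene, averaged 7.44 ± 0.23 in mutant and 6.43 ± 0.18 in non-mutant cultures, and Lifr, the receptor of leukemia inhibitory factor, 6.79 ± 0.32 and 5.77 ± 0.30 (SD, n = 4 and 6). The rise of Lifr rests on 1 of its 3 probe sets. The others differed by 0.18 and 0.20 (adjusted p = 0.280 and 0.421 over all probe sets), the second at a level below background. Htra1, a secreted serine protease gene, had 11.19 and 11.14 in R132C and 11.69 and 12.07 in R172K, against 10.31 to 10.96 in non-mutant cultures. The remaining rises were those of Ampd3, an AMP deaminase gene (1.06), the water channel gene Aqp8 (1.12), Ppargc1b, a transcriptional coactivator of mitochondrial genes (1.00), the tyrosine phosphatase gene Ptprr (0.95) and Mcpt8, a mast cell protease gene (0.90). Aqp8 lay below background in non-mutant cultures, at 4.20 ± 0.15, so its change is uncertain in size.

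The largest fall was that of Cfb, which encodes factor B of the alternative complement pathway, at 2.84-fold. It had 7.59 and 7.67 in R132C and 6.62 and 6.58 in R172K, against 8.64 and 8.25 with wild-type IDH1, 8.51 and 8.42 with wild-type IDH2 and 8.61 and 9.28 with vector (difference -1.50, SE 0.13, adjusted p = 0.000497). Casd1, which encodes an enzyme that acetylates sialic acid, had 5.69 and 6.21 in R132C and 5.27 and 5.56 in R172K, against 6.97 to 7.46 in non-mutant cultures (-1.48, SE 0.13, adjusted p = 0.000497). A second Casd1 probe set, at the level of background (4.74), differed by -0.12 (adjusted p = 0.511 over all probe sets). Ddc, the aromatic amino acid decarboxylase gene, had 10.76 and 10.33 in R132C and 9.71 and 9.46 in R172K, against 11.01 to 11.44 (-1.14, SE 0.10). For Cfb and Ddc every R172K culture lay below every R132C culture.

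The other falls included genes of the absorptive epithelial surface, Vil1 (villin, a microvillus protein; -0.99, SE 0.10) and Cdh17 (an intestinal and liver cadherin; -0.94, SE 0.08). Cdh17 had 11.10 and 10.79 in R132C and 10.33 and 10.09 in R172K, against 11.29 to 11.79 in non-mutant cultures. Txnip, a thioredoxin-binding arrestin gene that responds to glucose, averaged 9.66 ± 0.37 in mutant and 10.66 ± 0.26 in non-mutant cultures. Parp14 (-1.09), an ADP-ribosyltransferase gene, and Serpinb9 (-0.99), an inhibitor of granzyme B, fell too, as did Glrp1 (-1.09), the troponin C gene Tnnc1 (-1.07), the cytochrome P450 gene Cyp2j6 (-1.05) and the lipid kinase gene Pik3c2g (-0.96). Against the non-mutant forms, Pik3c2g differed by -1.55 in R172K (limma, adjusted p = 0.00362) and by -0.37 in R132C (adjusted p = 0.668). Of these 24 rises and falls, 18 stayed called whichever array was left out. Without R132C replicate 1 the adjusted p was 0.0574 for Wnt7a, 0.0625 for Glrp1 and 0.0782 for Pik3c2g. Leaving out 1 of the 10 arrays ended the call of Krt80 in 3 cases, of Cyp2j6 in 5 and of Mcpt8 in 7.

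**Figure D1:**
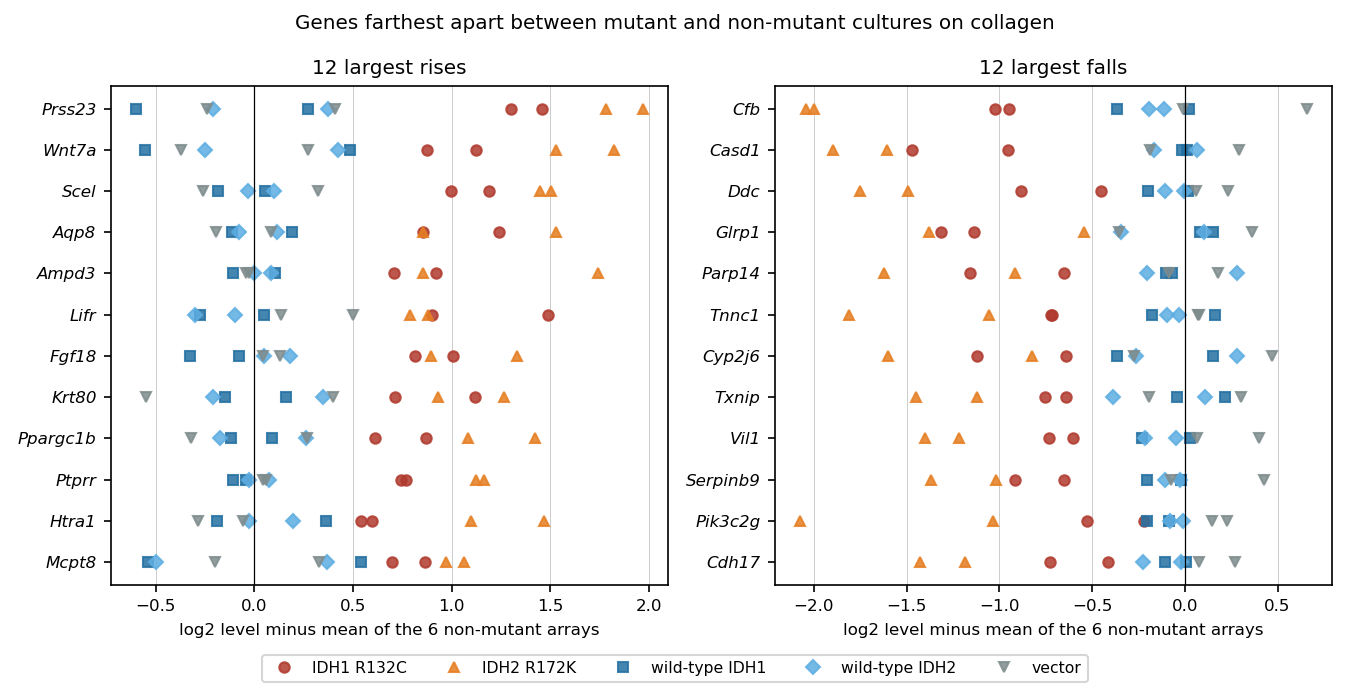
The 12 largest rises (left) and 12 largest falls (right) among called genes without overlap between mutant and non-mutant arrays. Each symbol is 1 culture, placed at its log2 level minus the mean of the 6 non-mutant arrays. All 4 mutant symbols lie to 1 side of all 6 non-mutant symbols, and for most genes the R172K symbols lie farther out than the R132C symbols.

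Hnf4a fell in both mutants. It had 11.24 and 10.98 in R132C and 10.90 and 10.85 in R172K, against 11.55 and 11.50 with wild-type IDH1, 11.46 and 11.60 with wild-type IDH2 and 11.51 and 11.61 with vector. The 4 mutant cultures lay below all 6 others, and the difference was -0.55 (SE 0.07, 1.46-fold, adjusted p = 0.00196), with an adjusted p of at most 0.0170 whichever array was left out. Other Hnf4a probe sets differed by -0.78 and -0.61 (adjusted p = 0.0112 and 0.00267 over all probe sets). The remaining one, with the lowest level of them (6.09), differed by -0.28 and did not pass the test (adjusted p = 0.213). Of the 18 hepatocyte transcription factors measured, 0 were higher and 3 lower, with a median of -0.10 over the list against -0.02 over all genes. This and all later list counts are to be read against 1.73% of all genes higher and 3.66% lower. No list was tested as a set. The lower factors besides Hnf4a were Tbx3, a T-box factor of hepatoblasts (-0.56, SE 0.11, adjusted p = 0.0173), and Nr1h4, the bile acid receptor FXR (-0.37, SE 0.08, adjusted p = 0.0316). Leaving out 1 array ended the call of Tbx3 in 3 of 10 cases and of Nr1h4 in 8. Cebpa, a factor of mature hepatocytes, had 5.70 to 6.47 in mutant and 5.69 to 6.34 in non-mutant cultures (0.02, SE 0.12, adjusted p = 0.942).

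Of 25 genes of secreted hepatocyte proteins, 0 were higher and 3 lower, with a median of -0.06. Of the 25, 13 had a mean level below background, so changes in them could be missed. Rbp4, the plasma carrier of retinol, had 12.37 and 12.37 in R132C and 12.01 and 11.66 in R172K, against 12.70 to 13.11 in non-mutant cultures (-0.80, SE 0.09, adjusted p = 0.00166). Ambp, the precursor of a plasma protease inhibitor, had 8.26 and 8.42 in R132C and 7.09 and 6.68 in R172K, against 8.71 and 8.52 with wild-type IDH1, 8.33 and 8.67 with wild-type IDH2 and 8.65 and 10.04 with vector. R132C replicate 2 overlapped the non-mutant range, and the other 3 mutant cultures lay below it. Hpx, the heme carrier hemopexin, overlapped in the same culture, with 7.64 and 7.89 in R132C and 6.76 and 6.35 in R172K, against 7.77 to 8.96. Vector replicate 2 stood above the other non-mutant cultures for both. The pooled differences were -1.21 (SE 0.22, adjusted p = 0.0145) for Ambp and -0.92 (SE 0.18, adjusted p = 0.0161) for Hpx, and without that culture -0.98 and -0.76. Both calls ended without either R132C culture. Ttr, the transthyretin gene, lay at 5.77 to 6.29 in mutant and 5.86 to 6.21 in non-mutant cultures (adjusted p = 0.989). Among 20 genes of hepatocyte metabolism, 1 was higher (Aldh1a1, a retinal dehydrogenase gene, 0.67, SE 0.16, adjusted p = 0.0375) and 1 lower (Asl of the urea cycle, -0.36, SE 0.07, adjusted p = 0.0172). Of these 20, 15 had a mean level below background, so this list says little about hepatocyte metabolism. The call of Aldh1a1 ended in 6 of the 10 fits without 1 array and that of Asl in 4.

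Several genes of epithelial adhesion and of the bile duct fell as well. Of 16 genes of simple epithelium, 0 were higher and 4 lower, and of 18 biliary genes 0 were higher and 3 lower. Epcam, a cell adhesion gene of progenitors and ducts that is on both lists, had 8.64 and 8.62 in R132C and 8.25 and 8.39 in R172K, against 8.99 to 9.57 in non-mutant cultures (-0.80, SE 0.11, adjusted p = 0.00503). Krt20, an intestinal-type keratin gene, had 11.52 and 11.39 in R132C and 10.86 and 11.13 in R172K, against 11.88 to 12.10 (-0.78, SE 0.07, adjusted p = 0.000497). Cdh1, which encodes E-cadherin, averaged 12.22 ± 0.20 in mutant and 12.56 ± 0.08 in non-mutant cultures (-0.34, adjusted p = 0.0286), and its lowest value, 11.92, was that of R172K replicate 1. Krt18 fell by 0.20. The biliary members besides Epcam were the annexin gene Anxa13 (-0.46, SE 0.05, adjusted p = 0.00124) and the Notch ligand gene Jag1 (-0.33, SE 0.07, adjusted p = 0.0303). A second Jag1 probe set differed by -0.20 (adjusted p = 0.282 over all probe sets). Leaving out 1 array ended the call of Cdh1 in 5 of 10 cases and of Krt18 and Jag1 in 7 each.

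Other duct genes did not pass the test. Krt19 had 13.87 to 14.07 in mutant and 13.85 to 13.97 in non-mutant cultures (0.06, SE 0.05, adjusted p = 0.600), Krt7 differed by 0.02 (SE 0.11) and Sox9, a factor of duct progenitors, by 0.11 (SE 0.14). Of the 14 genes of the Notch pathway, 0 were higher and 2 lower, Jag1 and the coactivator gene Maml1 (-0.29, adjusted p = 0.0490, ended in 8 of 10 cases). A second Maml1 probe set differed by -0.11 (adjusted p = 0.589 over all probe sets). With the replicate block the Notch counts were 2 and 2, where 3.75% of all genes were higher and 7.51% lower.

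**Figure D2:**
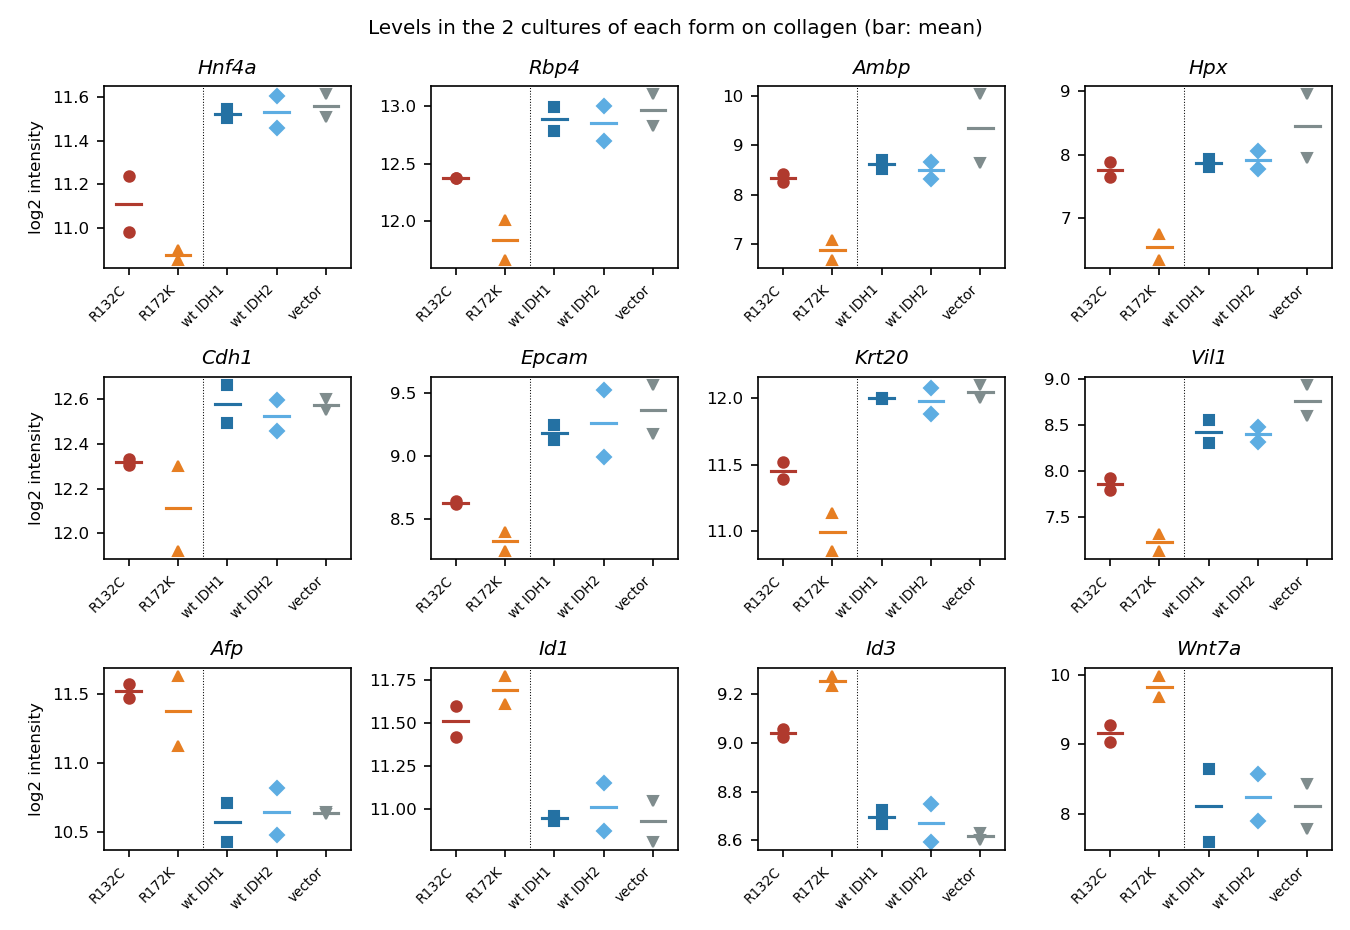
Log2 intensity of 12 genes in the 2 cultures of each form on collagen, with the mean as a bar and the mutant forms left of the dotted line. The axes do not start at 0 and differ between panels. Hnf4a, Rbp4, Cdh1, Epcam, Krt20 and Vil1 are lower in all 4 mutant cultures and Afp, Id1, Id3 and Wnt7a higher, while R132C replicate 2 overlaps the non-mutant cultures for Ambp and Hpx.

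Afp, which encodes the fetal plasma protein alpha-fetoprotein, rose. It had 11.47 and 11.58 in R132C and 11.13 and 11.63 in R172K, against 10.43 and 10.71 with wild-type IDH1, 10.48 and 10.82 with wild-type IDH2 and 10.64 and 10.63 with vector. No mutant culture overlapped a non-mutant one (0.83, SE 0.11, 1.78-fold, adjusted p = 0.00282), and the adjusted p was at most 0.0286 whichever array was left out. Of 14 hepatoblast and oncofetal genes, 2 were higher, Afp and Id3, and 3 lower, Tbx3, Cdh1 and the chromatin protein gene Hmga2 (-0.16, adjusted p = 0.0465).

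Id1 and Id3, classical targets of bone morphogenetic protein (BMP) signalling that encode inhibitors of basic helix-loop-helix factors, rose together. Id1 had 11.42 and 11.60 in R132C and 11.77 and 11.61 in R172K, against 10.81 to 11.15 in non-mutant cultures (0.64, SE 0.08, adjusted p = 0.00214). Id3 had 9.06 and 9.02 in R132C and 9.27 and 9.23 in R172K, against 8.59 to 8.75 (0.48, SE 0.06, adjusted p = 0.00366). Their relative Id2 fell by 0.19 (adjusted p = 0.0408). On the ligand side of the same 20-gene list, Tgfb2 rose by 0.57 (SE 0.14, adjusted p = 0.0408) and Bmp4 by 0.43 (SE 0.10, adjusted p = 0.0312). Over all probe sets no Tgfb2 probe set passed the test. The one used had an adjusted p of 0.0556, and the others differed by 0.36 and 0.54 (adjusted p = 0.151 and 0.127). The list thus held 4 rises and 1 fall, with a median of -0.01. For Bmp4, vector replicate 2, at 6.98, lay within the mutant range of 6.79 to 7.07. Leaving out 1 array ended the call of Tgfb2 in 8 of 10 cases and of Bmp4 in 6. Of 15 Wnt pathway genes 2 were higher, Wnt7a and Wnt7b (0.33, SE 0.08, adjusted p = 0.0427, ended in 9 of 10 cases), and Tbx3 was lower. A second Wnt7b probe set differed by 0.28 (adjusted p = 0.331 over all probe sets). Of 14 genes linked to YAP and TEAD, Tead1 (0.40, adjusted p = 0.0368, ended in 8 of 10 cases) and Tgfb2 were higher and 0 lower.

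The immediate output of growth factor signalling through ERK was lower for 4 of 20 genes and higher for 0, with a list median of -0.03. Dusp6, an ERK phosphatase gene that is itself induced by ERK, had 12.50 and 12.39 in R132C and 12.33 and 12.57 in R172K, against 12.73 to 12.98 in non-mutant cultures (-0.40, SE 0.07, adjusted p = 0.00892). The AP-1 genes Fos (-0.55, SE 0.12, adjusted p = 0.0259) and Fosl1 (-0.36, SE 0.07, adjusted p = 0.0141) and the zinc finger factor gene Egr1 (-0.40, SE 0.08, adjusted p = 0.0241) were lower too. Wild-type IDH2 replicate 1 stood apart for Egr1, at 11.81 against 12.08 to 12.22 in the other non-mutant cultures and 11.46 to 11.81 in mutant cultures. Leaving out 1 array ended the calls of Fos and Egr1 in 5 of 10 cases each, and those of Dusp6 and Fosl1 without R132C replicate 2 (adjusted p = 0.0634 and 0.0916).

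Of 22 genes of the interferon response and antigen presentation, 0 were higher and 3 lower, with a median of -0.14. With the replicate block 8 were lower, where 7.51% of all genes were. Of the 22, 7 had a mean level below background. B2m, the light chain of class I histocompatibility molecules, had 12.49 and 12.70 in R132C and 12.44 and 12.63 in R172K, against 12.81 to 13.04 in non-mutant cultures (-0.35, SE 0.07, adjusted p = 0.0159). Ifih1, a sensor of viral RNA, averaged 6.96 ± 0.33 in mutant and 7.69 ± 0.29 in non-mutant cultures (-0.74, adjusted p = 0.0343), and the factor gene Irf1 fell by 0.33 (adjusted p = 0.0378). Leaving out 1 array ended the call of B2m in 2 of 10 cases, of Ifih1 in 7 and of Irf1 in 8. The classical interferon-induced genes Ifit1 (0.02), Mx1 (0.01) and Rsad2 (0.08) did not pass the test. The class I heavy chain genes H2-K1 (-0.58, adjusted p = 0.106) and H2-D1 (-0.40, adjusted p = 0.0672) were among those called only with the block, and their probe sets may cross-hybridise.

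Promoter letters were set beside these falls. The interferon-stimulated response element was searched as GAAA, any 2 bases and GAAA again, on both strands, from 250 bases before to 50 bases after the start of each gene (RefSeq, GRCm38.p6). It was in 22 of the 363 lower genes that had a promoter sequence (6.06%), in 4 of 177 higher genes (2.26%) and in 380 of all 9887 genes (3.84%). The HNF4A motif CAAAGTCCA was in 5 lower genes (1.38%), in 1 higher gene (0.565%) and in 70 of all genes (0.708%). The shares for the E-box CACGTG were 12.4% of lower, 9.60% of higher and 10.8% of all genes, for the AP-1 motif TGANTCA 10.2%, 9.04% and 7.69%, and for the TEAD motif CATTCC 15.2%, 18.6% and 15.4%. These matches are letters in a window, not sites shown to be bound. The 250 bases upstream of B2m, Serpinb9 and Irgm1 are shown on each gene's own strand, with the first of these motifs in capitals. Those upstream of Slfn2 are shown likewise, with the HNF4A motif in capitals. These 4 genes fell without overlap between mutant and non-mutant cultures and were picked among genes with a match. That they carry the motif is therefore not a result. Irgm1, an interferon-inducible GTPase gene, and Slfn2, a schlafen gene, were chosen after their values were seen. B2m lies at chr2:122147437-122147686, Serpinb9 at chr13:33004291-33004540 and Slfn2 at chr11:83064862-83065111 on the plus strand, and Irgm1 at chr11:48871421-48871670 on the minus strand.
B2m: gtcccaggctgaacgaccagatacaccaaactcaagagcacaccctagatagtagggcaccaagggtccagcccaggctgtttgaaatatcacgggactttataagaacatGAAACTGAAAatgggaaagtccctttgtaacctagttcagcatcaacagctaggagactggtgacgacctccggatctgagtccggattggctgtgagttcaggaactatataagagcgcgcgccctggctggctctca
Serpinb9: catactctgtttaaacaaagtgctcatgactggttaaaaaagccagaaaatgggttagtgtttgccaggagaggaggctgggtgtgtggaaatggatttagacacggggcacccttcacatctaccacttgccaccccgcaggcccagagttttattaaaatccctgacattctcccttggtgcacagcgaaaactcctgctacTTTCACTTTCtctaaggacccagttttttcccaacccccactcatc
Irgm1: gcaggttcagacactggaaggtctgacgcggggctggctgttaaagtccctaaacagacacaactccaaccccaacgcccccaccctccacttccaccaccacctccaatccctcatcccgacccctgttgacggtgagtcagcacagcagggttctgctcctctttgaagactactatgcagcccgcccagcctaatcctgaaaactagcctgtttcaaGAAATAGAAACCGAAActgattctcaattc
Slfn2: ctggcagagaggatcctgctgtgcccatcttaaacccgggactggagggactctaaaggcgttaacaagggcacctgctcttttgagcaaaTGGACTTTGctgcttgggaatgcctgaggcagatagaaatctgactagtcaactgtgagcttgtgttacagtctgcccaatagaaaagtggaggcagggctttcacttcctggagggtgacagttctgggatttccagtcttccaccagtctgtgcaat

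The capitals in B2m and Irgm1 read in the direction of the gene, 2 matches overlapping in Irgm1, and those in Serpinb9 and Slfn2 are the motif's reverse complement. Irgm1 had 9.55 and 9.63 in R132C and 9.40 and 9.44 in R172K, against 10.11 to 10.30 in non-mutant cultures (-0.72, SE 0.06, adjusted p = 0.000497). Serpinb9 had 7.87 and 8.13 in R132C and 7.41 and 7.76 in R172K, against 8.58 to 9.21 (-0.99, SE 0.12, adjusted p = 0.00171). Slfn2 had 8.78 and 8.70 in R132C and 7.76 and 8.19 in R172K, against 9.06 to 9.41 (-0.91, SE 0.11, adjusted p = 0.00166).

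Of 23 acute phase and chemokine genes, 0 were higher and 3 lower. Ccl2, a chemokine that attracts monocytes, had 8.59 and 9.53 in R132C and 7.47 and 7.52 in R172K, against 9.08 to 9.47 in 5 non-mutant cultures and 10.39 in vector replicate 2. Both R172K cultures and R132C replicate 1 lay below the non-mutant range, and R132C replicate 2 lay within it (pooled difference -1.21, SE 0.20, adjusted p = 0.00912; -1.06 without vector replicate 2). Ccl9, another chemokine gene, was lower in all 4 mutant cultures (-0.73, SE 0.11, adjusted p = 0.00631), and Nfkbia, the inhibitor of NF-kappa B, fell by 0.43 (adjusted p = 0.0118). With the replicate block, Nfkbia differed between the mutants (limma, R132C minus R172K 0.51, adjusted p = 0.0394). Against its own wild type, R172K passed the test for Nfkbia with the block (adjusted p = 0.00137) and R132C did not (adjusted p = 0.823). Of 17 p53 target genes 2 were lower, Trp53inp1 (-0.80, SE 0.17, adjusted p = 0.0229) and Zmat3 (-0.38, adjusted p = 0.0483). Of 22 lysosomal genes 2 were lower, the beta-glucuronidase gene Gusb (-0.47, SE 0.06, adjusted p = 0.00419) and the cathepsin A gene Ctsa (-0.55, SE 0.09, adjusted p = 0.00945). With the block 5 were lower, where 7.51% of all genes were. Among 26 genes of extracellular matrix and integrins, Htra1 and the laminin gene Lamc1 (0.37, SE 0.08, adjusted p = 0.0221) were higher and the collagenase gene Mmp14 lower (-0.40, SE 0.06, adjusted p = 0.00633). Without 1 array, the call of Zmat3 ended in 8 of 10 cases, of Trp53inp1 in 6, of Lamc1 in 4 and of Ctsa and Nfkbia in 2 each. A second Trp53inp1 probe set differed by -0.48 (adjusted p = 0.157 over all probe sets).

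Enzymes that use or make 2-oxoglutarate were read against the 5.39% of all genes called, and against 11.3% with the replicate block. Of 25 genes of 2-oxoglutarate-dependent dioxygenases, 1 was higher, the collagen prolyl hydroxylase gene P4ha2 (0.65, SE 0.16, adjusted p = 0.0453), and 0 lower, and leaving out 1 array ended that call in 9 of 10 cases. With the block 3 were higher and 3 lower, among them the oxygen sensor gene Egln3, which had a difference of 0.43 (adjusted p = 0.111 without the block and 0.00121 with it). Of 28 genes of the citric acid cycle, pyruvate and glutamate, 1 was higher, the pyruvate carboxylase gene Pcx (0.51, SE 0.12, adjusted p = 0.0441), a call that ended in 8 of 10 cases. Idh1 had 11.81 and 11.97 in R132C and 11.21 and 11.78 in R172K, against 11.91 to 12.28 in non-mutant cultures. Of the mutant cultures, R132C replicate 2 overlapped the non-mutant range. Its difference of -0.40 (SE 0.12) had an adjusted p of 0.0850, and of 0.00242 with the block. Idh2 differed by 0.07 (SE 0.06) and D2hgdh, which clears D-2-hydroxyglutarate, by 0.09 (SE 0.08), and neither passed the test.

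Cholesterol synthesis had the lowest list median, at -0.22. Of its 17 genes 0 were called, although 16 had a negative difference. The block called 3.75% of all genes higher and 7.51% lower. With it 8 of the 17 were lower, among them the squalene synthase gene Fdft1 (-0.37, adjusted p = 0.416 without the block and 0.00931 with it). The list median was -0.08 for R132C and -0.37 for R172K. Fatty acid synthesis had 0 called of 14, and 3 lower with the block. Of 22 mitosis genes 2 were higher, Top2a (0.32, adjusted p = 0.0490) and Ccna2 (0.24, adjusted p = 0.0479), and 5 with the block, while 0 of 26 DNA replication genes were called, and 1 with the block. Of 22 glutathione and NRF2 genes, Srxn1 was higher (0.40, adjusted p = 0.0147) and Gstp1 lower (-0.27, adjusted p = 0.0200). The calls of Top2a and Ccna2 each ended in 8 of the 10 fits without 1 array, that of Gstp1 in 7 and that of Srxn1 in 2. A second Ccna2 probe set differed by 0.14 (adjusted p = 0.373 over all probe sets). The other Srxn1 probe sets differed by 0.18 to 0.30 and did not pass the test. Of 22 genes of glycolysis and hypoxia 1 was higher, P4ha2, and 4 higher and 1 lower with the block. The counts were 0 in each direction for 22 genes of the ATF4 response and serine synthesis, 18 of DNA methyltransferases and Polycomb and 23 of ribosome biogenesis.

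Of the markers of blood cells, endothelium and mesenchyme 1 was called. The 12 blood cell genes had a mean level of 4.82 to 4.99 in mutant and 4.77 to 4.98 in non-mutant cultures, with Ptprc, which encodes CD45, at 3.96 ± 0.25 and 4.35 ± 0.31, below background. The 14 endothelial genes had 4.90 to 5.01 and 4.84 to 4.95, with Pecam1 and Cdh5 below background. Of 22 mesenchymal genes, Cdh2, the N-cadherin gene, rose by 0.24 (SE 0.05, adjusted p = 0.0304), a call that ended in 7 of 10 cases when 1 array was left out, and Vim, the vimentin gene, lay at 14.02 ± 0.14 in mutant and 14.09 ± 0.05 in non-mutant cultures. The fibroblast genes Pdgfra, Dcn and Lum were below background. With the block, Ptprc was lower and the macrophage gene Cd68 higher (0.57, adjusted p = 0.0428), and R172K replicate 2 alone, at 7.27, lay far above the other cultures, which had 5.44 to 6.14.

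**Figure D3:**
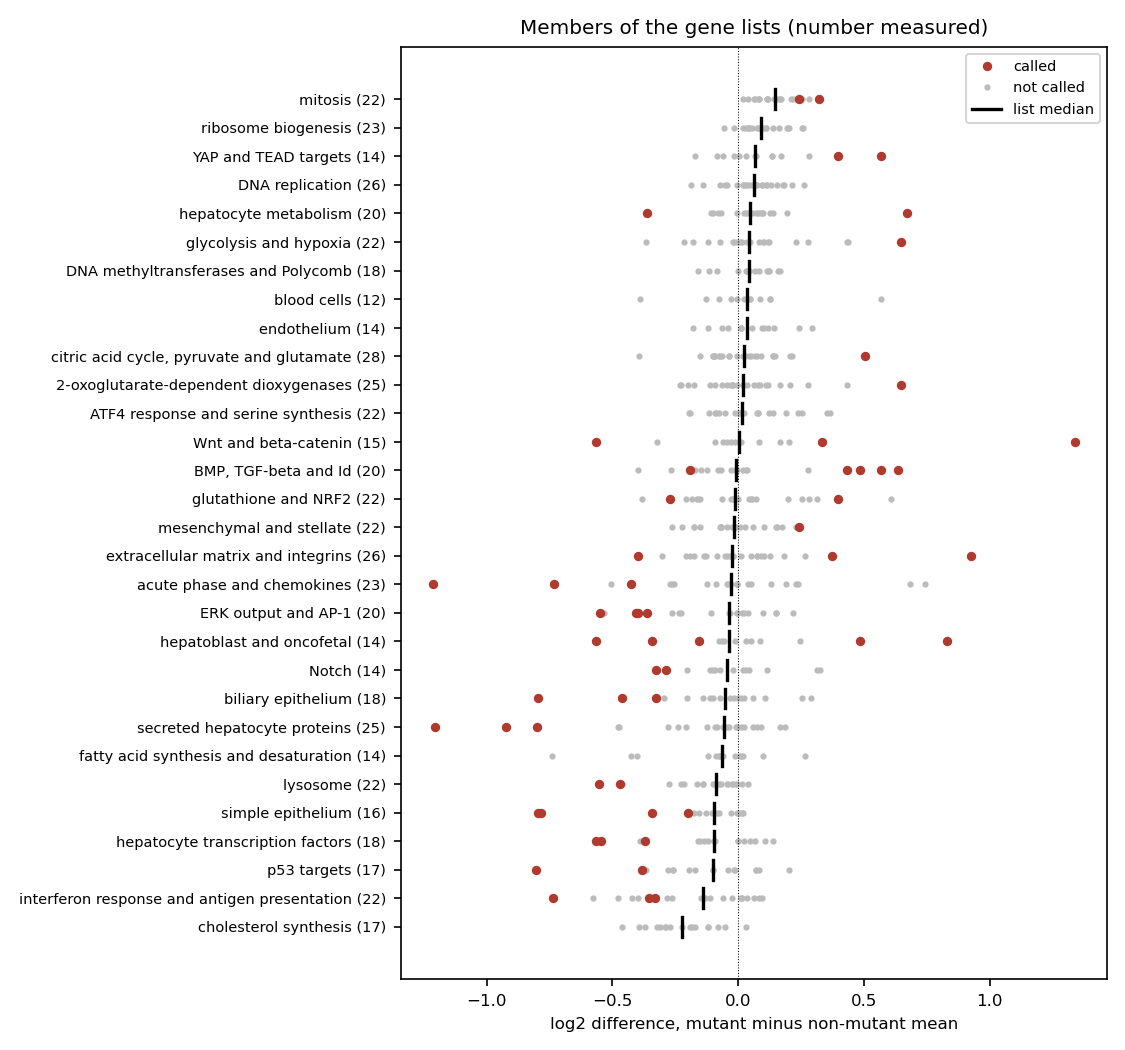
Log2 difference, mutant minus non-mutant mean, of every measured member of the 30 gene lists, with the number measured in brackets. Red points passed the test, grey points did not, and black bars are list medians. The medians lie between -0.22 for cholesterol synthesis and 0.15 for mitosis, and most called members are single genes far from their list's median.

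R172K cultures lay farther from the non-mutant cultures than R132C cultures did for most called genes. For 667 of the 668 called genes both mutant means lay on the same side of the non-mutant mean, and for 553 R172K lay farther out. The median of the rises was 0.34 for R132C and 0.51 for R172K, and that of the falls -0.30 and -0.48. Since the pooled mean chose these genes, this is a description. Against the 3 non-mutant forms R132C alone had 28 calls (0.226%), 11 higher (0.0888%) and 17 lower (0.137%), and R172K alone 796 (6.42%), 235 higher (1.90%) and 561 lower (4.53%). The difference between the mutants itself gave 0 calls by limma, with 1346 genes at an unadjusted p under 0.05. With the block it gave 43 calls (0.347%), 32 higher in R132C (0.258%) and 11 lower (0.0888%), of which 19 were among the 668, all with R172K farther from the non-mutant cultures. Of all 43, R132C lay farther out for 6, among them Aldh3a1 (R132C minus R172K 1.09, adjusted p = 0.00999) and Bcl2l15 (-0.99, adjusted p = 0.0210). Ddc was one of the 19 (R132C minus R172K 0.96, SE 0.09, adjusted p = 0.00265), as were Cdh17 (0.74, adjusted p = 0.0208), Cfb (1.03, adjusted p = 0.0486) and Ccl2 (1.56, adjusted p = 0.0237). Without R172K replicate 2 the difference gave 1348 calls and without R172K replicate 1 it gave 5. Doxycycline and the IDH gene cannot be told apart in this contrast.

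Each mutant was also set against its own wild type. The means of each pair come from separate arrays, but the spread comes from a shared fit of all forms. Calls in the 2 pairs, and their overlap, are therefore not independent. R132C against wild-type IDH1 gave 0 calls, with 875 genes at an unadjusted p under 0.05, and 96 with the block (0.775%), 39 higher (0.315%) and 57 lower (0.460%). R172K against wild-type IDH2 gave 141 calls (1.14%), 46 higher (0.371%) and 95 lower (0.767%), and with the block 561 (4.53%), 178 higher (1.44%) and 383 lower (3.09%). R172K's count fell to 4 without wild-type IDH2 replicate 2 and to 17 without its replicate 1, was 48 without either R132C culture, 66 without R172K replicate 1, 71 and 70 without wild-type IDH1 replicate 1 or 2, and 2121 without R172K replicate 2. With the block, 23 genes were higher in both pairs, which is 59.0% of the R132C rises and 12.9% of the R172K rises. Another 40 were lower in both, 70.2% of the R132C falls and 10.4% of the R172K falls. Across all genes the differences of the 2 pairs had a Pearson r of 0.43 and a Spearman rho of 0.32, given as a description, since genes are not independent and the pairs share their replicate numbers. A test of the difference between the pairs gave 0 calls, with 543 genes at an unadjusted p under 0.05.

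**Figure D4:**
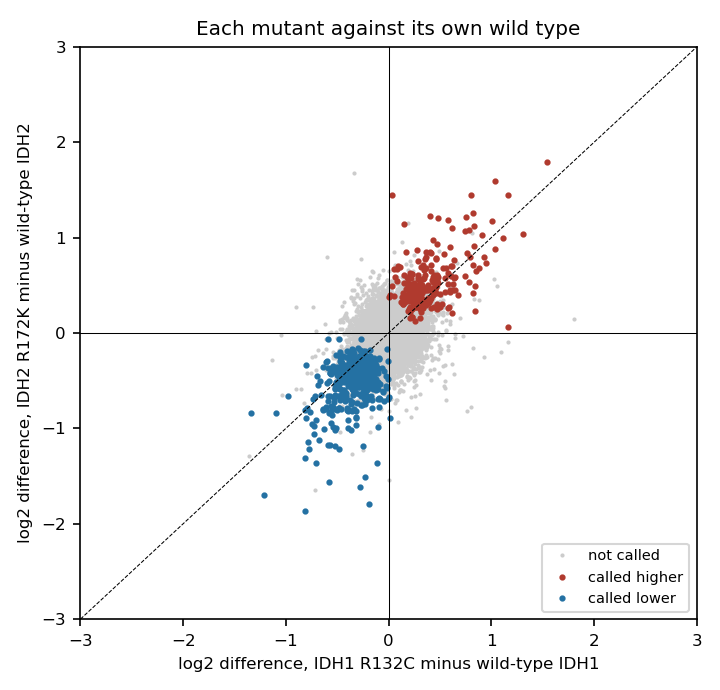
Log2 difference of IDH1 R132C minus wild-type IDH1 (horizontal) and of IDH2 R172K minus wild-type IDH2 (vertical) for every gene, with the 214 called rises in red, the 454 called falls in blue and the line of equal change dashed. Called genes lie mostly in the lower left and upper right.

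The uncoated plates gave separate arrays, R132C against vector with 2 cultures each, though their spread was estimated together with that of the collagen arrays. On them 296 genes were called (2.39%), 111 higher (0.896%) and 185 lower (1.49%). Of the 214 genes higher in the mutants on collagen, 173 (80.8%) were also higher in R132C on uncoated plates, where 46.6% of all genes were, and 26 (12.1%) were called higher and 4 lower. Of the 454 lower genes, 369 (81.3%) were also lower, where 53.4% of all genes were, and 33 (7.27%) were called lower and 3 higher. Across all genes r was 0.32 and rho 0.32. Afp (1.45, SE 0.21, adjusted p = 0.00311), Fgf18 (1.24, adjusted p = 0.00144), Scel (0.81, adjusted p = 0.0248), Lifr (0.85, adjusted p = 0.0482) and Htra1 (1.06, adjusted p = 0.0468) were higher on uncoated plates too, and Epcam (-1.49, SE 0.21, adjusted p = 0.00218) and Casd1 (-0.95, adjusted p = 0.0318) lower. Hnf4a had -0.28 (SE 0.11, adjusted p = 0.286), Vil1 -0.62 (SE 0.15, adjusted p = 0.0539) and Prss23 -0.94 (SE 0.33, adjusted p = 0.184), which is opposite to its rise on collagen. Id3, higher on collagen, was lower there (-0.66, adjusted p = 0.0102), and Ambp (0.00) and Id1 (0.00, SE 0.14) showed no difference past the test.

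**Figure D5:**
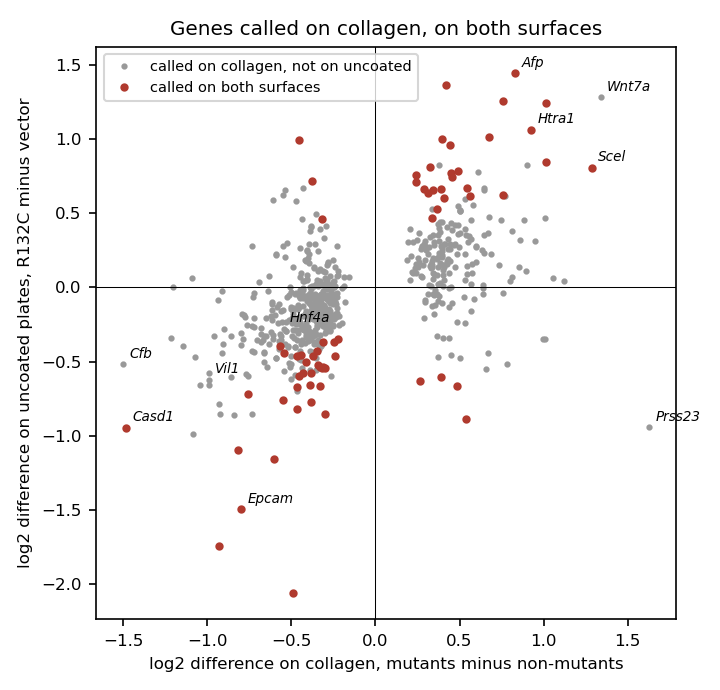
The 668 genes called on collagen, placed by their log2 difference there (mutants minus non-mutants, horizontal) and by R132C minus vector on uncoated plates (vertical). Red points also passed the test on uncoated plates. Most points lie in the lower left and upper right, and Prss23 is among those that do not.

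Moving vector cells off collagen, which the protocol uses to let hepatoblasts differentiate, raised 1868 genes (15.1%) and lowered 1760 (14.2%). To share no array with that contrast, the mutants were set against the wild-type forms alone, which gave 109 rises and 223 falls, a comparison chosen after the data were seen. Of the 223 falls, 89 (39.9%) rose in vector cells off collagen and 34 (15.2%) fell. Of the 109 rises, 26 (23.9%) rose and 36 (33.0%) fell. Across all genes r was -0.16 and rho -0.20. The genes named next were chosen against controls that include the same vector arrays on collagen, so their values are given as a description. Off collagen the vector cells differed by 2.08 (SE 0.15) for Vil1, 1.76 (SE 0.26) for Cfb, -3.96 (SE 0.25) for Htra1, 2.02 (SE 0.20) for Lifr, -1.39 for Afp, 1.83 for Epcam and 0.15 (SE 0.11) for Hnf4a.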

How the data were processed

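The deposited values were probe set intensity on a linear scale. RMA, which corrects background, normalises and summarises Affymetrix probes, had made them, per the submitters' processing notes. Its version is not stated there. Log2 was taken. Of 22690 probe sets, 64 controls were left out, and probe sets with several symbols (691) or none in the platform table (1555) were not used. Each of 12393 genes was represented by its probe set with the highest mean over the 14 arrays. The 5 group means on collagen were fitted with limma 3.58.1 in R 4.3.3 (eBayes with an intensity trend; 5 residual and 5.51 prior degrees of freedom), and the mean of both mutants was set against the mean of the 3 non-mutant forms. A gene was called at an adjusted p under 0.05 (Benjamini-Hochberg). The uncoated plates were read from a fit of 7 group means to all 14 arrays, so spread is shared between surfaces. Scripts were tested on simulated data. Precision is limited by the 2 arrays of each form.

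Samples with the same replicate number deviated together: across genes, replicate 2 minus replicate 1 correlated between forms at 0.111 to 0.487 in each of the 10 pairs of forms. The number was therefore also fitted as a block. The labels give no scan date or other batch.

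The genes compared and the gene lists were chosen with earlier results of these data known. Named were the 12 largest rises and 12 largest falls among called genes without overlap between mutant and non-mutant arrays, up to 4 called members of each list, and 11 fixed genes, of which 1 is not reported here; other names were chosen after their values were seen. Alternatives changed the probe set choice, the filter on low genes, the centring, the trend, the arrays, the weights and the control forms.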

Additional observations from a re-analysis of the deposited data

Results flagged for a closer look

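A single culture stood apart from the rest of its side by Dixon's criterion, the gap to the nearest culture over the whole range, for 14 of 200 sets of 4 mutant or 6 non-mutant arrays examined. Chance gives about 1 in 20. R172K replicate 1 was the low culture among the 4 mutant arrays for Tbx3 (ratio 0.867), Cdh1 (0.929), Vim (0.836) and Bmp4 (0.894); its log2 level was 8.24, 11.92, 13.81 and 6.79, against at least 8.74, 12.30, 14.07 and 7.04 in the other mutant cultures. R132C replicate 2 was the high mutant culture for Lifr (0.837) and Irf1 (0.832), at 7.26 and 9.32.

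Vector replicate 2 was the high culture among the 6 non-mutant arrays for Serpinb9 (0.709), Ambp (0.773), Hpx (0.751), Ccl2 (0.701) and Mmp14 (0.663), and the low one for Rbbp7 (0.665). Wild-type IDH1 replicate 2 was high for Jag1 (0.642), at 10.93, and wild-type IDH2 replicate 1 low for Egr1 (0.672), at 11.81. Leaving out the culture that stood apart ended the call of Jag1 (adjusted p = 0.0825) and of Irf1 (adjusted p = 0.0901). The other called genes of this group, Tbx3, Cdh1, Bmp4, Lifr, Serpinb9, Ambp, Hpx, Ccl2, Mmp14 and Egr1, stayed called without that culture; Vim and Rbbp7 were not called with or without it.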

How the results depend on the processing

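The pooled count of 668 was 517 to 890 under 8 other settings (every probe set, the mean of probe sets, a filter at the 30th percentile, cyclic loess, centring, no trend, all 14 arrays, 2 classes of 4 and 6 arrays). It was 318 with array weights, 332 against the wild types alone, 148 against vector alone, 28 for R132C alone, 1396 with the replicate block, 1405 with the block and centring (added after seeing the data) and 1398 with the form as a random block. In that last fit the consensus correlation within forms was negative (-0.18), which narrows the standard error, so it is not a stricter setting. Leaving out 1 array gave 124 to 2226. R132C against wild-type IDH1 had 0 calls, 6 with all 14 arrays, 56 with array weights, 96 with the block, 162 with the block and centring, and 0 in every leave-one-out. R172K against wild-type IDH2 had 141, and 215, 0, 561 and 594 in these settings and 4 to 2121 in leave-one-out. R132C minus R172K had 0, with 43 under the block and 52 under the block and centring, and 0 to 1348 in leave-one-out. The non-mutant forms differed for 0 genes under every setting run, with 61 genes at an unadjusted p under 0.05 without the block and 94 with it.

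The named genes and the call counts of the gene lists made 160 results, with 4159 recomputed values. The list counts among them have no sign. No gene changed sign past the test, 401 gene values fell short of the threshold and 19 passed it anew. Of the 69 called genes, 30 stayed called whichever array was left out. The block ended none of these calls. With 2 cultures in each form, differences near the replicate spread were not detectable, and signal at background limits genes such as Aqp8.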

Other observations

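Interferon-inducible and antigen-processing genes outside the lists also fell without overlap between mutant and non-mutant cultures; they were chosen after their values were seen. The interferon-inducible GTPase genes Igtp (-0.84, SE 0.21, adjusted p = 0.0491) and Ifi47 (-0.76, SE 0.15, adjusted p = 0.0199) fell like Irgm1. Nmi, an interferon-induced STAT-binding protein gene, averaged 7.89 ± 0.27 in mutant and 8.75 ± 0.31 in non-mutant cultures, and Ifi35, its partner, 7.72 ± 0.18 and 8.38 ± 0.19 (SD, n = 4 and 6). Tapbp, which encodes the peptide-loading chaperone tapasin (-0.77, adjusted p = 0.0237), Psme1, an activator subunit of the immunoproteasome (-0.54, adjusted p = 0.00512), and Psmb10, one of its catalytic subunits (-0.47, adjusted p = 0.00505), were lower. These are single genes picked for their fall, and no test of the group was made.

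Arrdc4, an arrestin gene related to Txnip that also responds to glucose, had 7.10 and 7.42 in R132C and 6.70 and 6.82 in R172K, against 7.45 to 8.39 in non-mutant cultures (-0.91, SE 0.16, adjusted p = 0.0117). Hhex, a homeobox gene of early liver, had 11.51 and 11.58 in R132C and 10.81 and 10.51 in R172K, against 11.61 to 12.16 (-0.78, SE 0.09, adjusted p = 0.00212). Gata5, which encodes an endodermal GATA factor, fell by 0.66 (adjusted p = 0.00394) and Lgals2, a galectin gene, by 0.90 (adjusted p = 0.000497). Lgals4, another galectin gene, had a larger difference of -1.28 but an adjusted p of 0.0852, and of 6.61e-06 with the replicate block. Its replicate 1 lay above its replicate 2 in every form. Among rises, Csf1, the macrophage growth factor gene, averaged 9.86 ± 0.39 in mutant and 9.01 ± 0.24 in non-mutant cultures, and Bmp6, a BMP ligand gene, 6.46 ± 0.21 and 5.91 ± 0.29. The imprinted gene Mest rose by 0.86 (SE 0.14, adjusted p = 0.00892).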
